A study of Mus musculus with 4 samples.

Results

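The mRNAs of the DEAD and DEAH box helicases were followed in J1 mouse embryonic stem cells that were either wild type (WT) or Mov10 knockout (KO). The members were all gene symbols that begin with Ddx or Dhx followed by a digit, with the exception of Ddx6, and every read with a tail length above 0 in any of the 4 libraries was used. This gave 51 of 13831 gene symbols, 35 of them named Ddx and 16 named Dhx. They were chosen by name, for their relation to the knocked-out gene, and not by any measured value. There were 2 libraries of each genotype (WT 1 and WT 2, KO 1 and KO 2). Both genotypes were grown in serum with LIF and received no treatment. How the knockout was made, and whether the KO cells were a single clone, is not given in the sources used here. Sequencing was of direct RNA on a nanopore, in which unamplified RNA strands are read through a pore and the poly(A) tail is measured on the same molecule, in nucleotides (nt). The study set out to compare tail lengths between the genotypes.

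DEAD and DEAH box proteins are ATP-dependent enzymes that unwind short RNA duplexes or remodel RNA-protein complexes, and they are named after a conserved sequence of amino acids in the site that binds and hydrolyses ATP. Different members act at successive steps in the life of an RNA, in splicing, in the assembly of ribosomes, in export from the nucleus and in translation. Mov10 is an RNA helicase of a separate superfamily, so the members are its relatives in function and not close homologs. The poly(A) tail, added in the nucleus and shortened in the cytoplasm, is bound by poly(A)-binding protein and is tied to the stability and translation of an mRNA.

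From 351133 to 683239 reads per library were used, and from 1135 to 2130 of them lay on the members, which is 0.258% to 0.355% of a library. Mov10 itself was seen 26 and 14 times in the WT libraries and 0 and 1 times in those of the KO cells. All 8 embryonic stem cell markers examined, Pou5f1 and Nanog among them, had reads. Of the 6 markers of fibroblast feeder cells, 5 had no read, and Thy1 had at most 13.2 reads per 1000000 after scaling in a library. Of the 7 markers of early differentiation, 4 had no read, and the 3 others, Gata6, Gata4 and Pax6, together gave at most 4.28. Nothing in the labels says that the 2 libraries of a genotype came from separate cultures, so the tests measure the spread between these libraries, which may be technical.

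The first question was which helicase mRNAs the cells contained. A direct RNA read stands for a single molecule that begins at its tail, so read numbers were not divided by transcript length, and levels are given as reads per 1000000 reads after median-of-ratios scaling (RPM). The 12 members with the most reads held 67.1% of the 5886 member reads. Of the 51 members, 47 had a read in every library, 31 had a mean of at least 10 reads per library, and the other 20 had between 1 and 39 reads in all 4 libraries together.

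Helicases of pre-mRNA splicing led the list, with 2662 reads on 12 members. Ddx5 (ENSMUSG00000020719.14), a cofactor of splicing and transcription also known as p68, was the most abundant member. It had 448.7 RPM in WT 1, 486.3 RPM in WT 2, 353.9 RPM in KO 1 and 355.2 RPM in KO 2. Dhx16 (ENSMUSG00000024422.14), the relative of yeast Prp2 that activates the assembled spliceosome, came next with 378.2, 433.5, 266.8 and 200.8 RPM in the same order. Ddx39b (ENSMUSG00000019432.15), also called UAP56, which acts in early spliceosome assembly and in mRNA export, had 231.9, 266.8, 226.9 and 249.3 RPM. Dhx15 (ENSMUSG00000029169.11), which takes spent spliceosomes apart, had 116.0, 141.7, 128.4 and 152.2 RPM. Dhx16 thus had more reads than Dhx15 in every library. The other DEAH box helicases of splicing had far fewer reads, 61 for Dhx38, 47 for Dhx8 and 21 for Dhx35 in all libraries together, against 584 for Dhx16. Whether reads of a neighbouring gene are among those assigned to Dhx16 was not tested.

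Among the helicases of translation and cytoplasmic mRNA, Ddx3x (ENSMUSG00000000787.12), which helps ribosomes through structured leader sequences, accounted for most reads. It had 133.6 RPM in WT 1, 247.3 RPM in WT 2, 222.6 RPM in KO 1 and 211.8 RPM in KO 2. Its Y-linked copy Ddx3y had only 5 reads in all, and the 2 genes are alike enough that single reads could be assigned to the wrong one. Dhx9, a helicase that unwinds RNA structures in the nucleus and cytoplasm, and Dhx36, which unwinds G-quadruplexes, had 80 and 71 reads in all.

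The 16 members that assemble ribosomes in the nucleolus shared 1494 reads. Ddx18 (ENSMUSG00000001674.11) had 103.4, 108.4, 118.4 and 154.4 RPM in WT 1, WT 2, KO 1 and KO 2. Ddx21 (ENSMUSG00000020075.8) had 52.9 RPM in WT 1 but 150.1, 124.1 and 116.9 RPM in the other libraries. Ddx56 had 73.1, 105.6, 89.9 and 105.9 RPM in that order, and Ddx49 had 73.1, 91.7, 58.5 and 83.8 RPM. At the low end of the group, Ddx31 had 9 reads in all and Dhx37 had 13.

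The export helicase Ddx39 (ENSMUSG00000005481.18), called Ddx39a in RefSeq, had 242.0, 175.1, 172.7 and 180.9 RPM. Ddx1 (ENSMUSG00000037149.10), a subunit of the tRNA ligase complex, had 80.7, 130.6, 117.0 and 92.7 RPM, and Ddx20, which takes part in assembling small nuclear RNPs, had from 40.3 to 63.9 RPM. The mitochondrial RNA helicases Dhx30 and Ddx28 had 100 and 50 reads. The RNA sensor Ddx58, known as RIG-I, had 26 reads and the related Dhx58 had 1. The germ-line helicase Ddx4, known as Vasa, had 23 reads, and Ddx43 had 4. Ddx11, which carries the family name but acts on DNA in chromosome cohesion, had 20 reads.

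**Figure D1:**
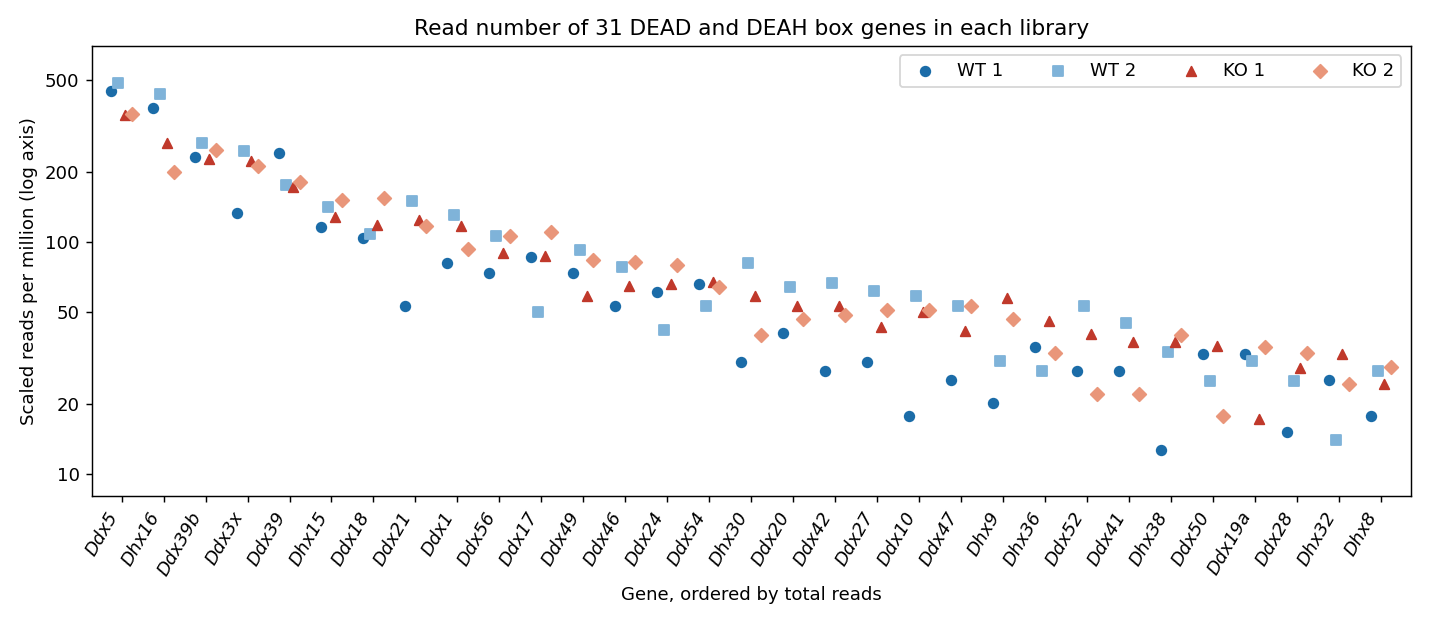
Scaled RPM (vertical axis, logarithmic) of the 31 members with a mean of at least 10 reads, ordered by total reads along the horizontal axis, with 1 point per library. Ddx5 stands highest in each library. Dhx16 is next by total reads but lies below Ddx39b and Ddx3x in KO 2. For Ddx5 and Dhx16 the 2 KO points lie below the 2 WT points. For 17 genes the lowest point is WT 1.

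The 2 WT libraries stood at opposite ends for many of these genes. Of the 31 members, 17 had their lowest scaled read number in WT 1, against 5 in WT 2, 5 in KO 1 and 4 in KO 2. Over all 4815 genes tested for read number the lowest value was in WT 1 for 31.4%, in WT 2 for 24.4%, in KO 1 for 19.1% and in KO 2 for 25.2%. The highest value of a member was in WT 1 only once, for Ddx39, in WT 2 for 14 members, in KO 1 for 5 and in KO 2 for 11. Over all genes tested it was in WT 1 for 32.5%, in WT 2 for 24.6%, in KO 1 for 18.6% and in KO 2 for 24.2%. Differences in read number that depend on WT 1 are therefore given without it as well.

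Tail length was described for the 12 members that reached 20 reads in every library. The mean of the 4 library medians ran from 83.2 nt for Ddx49 to 148.9 nt for Ddx3x. Its median over the 12 members was 108.3 nt, and over all 1935 genes with as many reads it was 105.8 nt.

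Ddx3x had the longest tails. Its median was 151.9 nt in WT 1 (95% order-statistic interval over reads 123.2 to 175.8 nt), 156.6 nt in WT 2, 152.3 nt in KO 1 and 134.7 nt in KO 2. These medians stood at percentiles from 96.7 to 98.5 of the 1935 genes of the same library, and Ddx3x had rank 1 among the 12 members in 3 libraries and rank 2 in KO 2. Of its 394 reads, 50.0% had a tail of at least 150 nt (95% Wilson interval 45.1 to 54.9%).

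Ddx5 came next, with 146.9 nt in WT 1, 118.6 nt in WT 2, 129.7 nt in KO 1 and 144.9 nt in KO 2. Its replicates lay further apart than its genotypes, at percentiles from 69.7 to 98.6. The pooled reads of Ddx5 were broadly spread, with a lower quartile of 81.1 nt and an upper quartile of 197.6 nt.

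The shortest tails were those of Ddx49 and Ddx1. Ddx49, a nucleolar helicase, had medians of 84.1, 79.2, 90.8 and 78.8 nt in WT 1, WT 2, KO 1 and KO 2, at percentiles from 4.65 to 10.3. Only 8.51% of its 141 reads reached 150 nt (95% Wilson interval 4.93 to 14.3%). Ddx1 had 76.0, 82.7, 101.8 and 86.0 nt. Between these ends, Dhx15, Ddx39b, Ddx18, Ddx46, Ddx21, Dhx16, Ddx39 and Ddx56 had means from 118.4 down to 98.9 nt, and their order changed from library to library. Dhx15 had 129.5, 113.4, 124.6 and 106.2 nt in WT 1, WT 2, KO 1 and KO 2. Ddx39b had 102.0, 130.5, 122.0 and 106.7 nt, and in both genotypes its libraries lay further apart than the genotype means. Ddx21 was among the steadiest, at 113.1, 104.8, 109.6 and 104.4 nt. Dhx16 had 110.1, 99.8, 110.8 and 99.6 nt, nearly the same pair of values in each genotype. Ddx18, at 101.6, 130.7, 121.9 and 95.2 nt, had rank 2 in WT 2 and rank 9 in WT 1 and KO 2. The means of neighbours in this middle range differed by less than the SD of either gene's 4 library medians, which ran from 4.17 nt for Ddx21 to 16.7 nt for Ddx18.

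**Figure D2:**
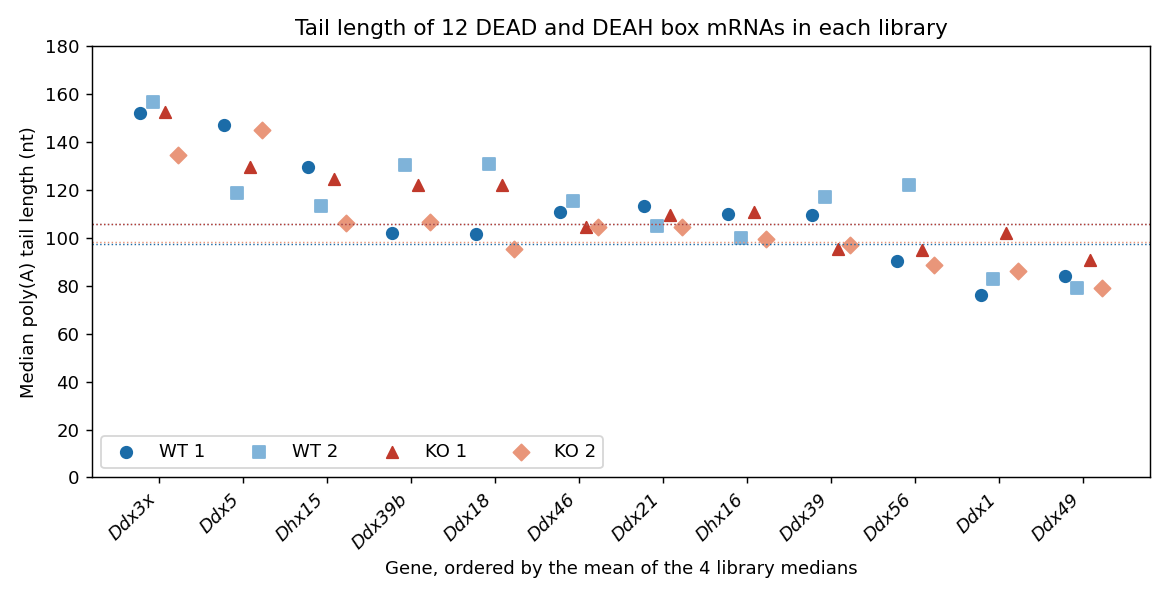
Median poly(A) tail length in nt (vertical axis) of the 12 members with at least 20 reads in each library, ordered by their mean, with 1 point per library. Dotted lines give the median over all reads of each library, 97.3 to 105.8 nt. Ddx3x lies above and Ddx49 below these lines in every library.

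With all member reads of a library pooled, the median tail was 113.4 nt in WT 1, 114.4 nt in WT 2, 115.2 nt in KO 1 and 103.4 nt in KO 2, against 97.3, 105.6, 105.8 and 98.1 nt over all reads. Tails of at least 150 nt made up 31.5% and 30.8% of member reads in WT 1 and WT 2, and 31.1% and 27.2% in KO 1 and KO 2. Over all reads the same shares were 18.8%, 24.0%, 23.7% and 19.6%. Ddx5 and Ddx3x held 19.6% of member reads and 29.4% of those long tails. Without these 2 genes the shares were 26.9%, 28.1%, 27.9% and 22.7%. Tails under 30 nt made up 2.82%, 5.22%, 2.16% and 3.78% of member reads, against 2.35%, 3.02%, 1.55% and 2.75% over all reads. The members thus had a larger share at both ends in each library, a description of pooled reads in which abundant genes weigh most.

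**Figure D3:**
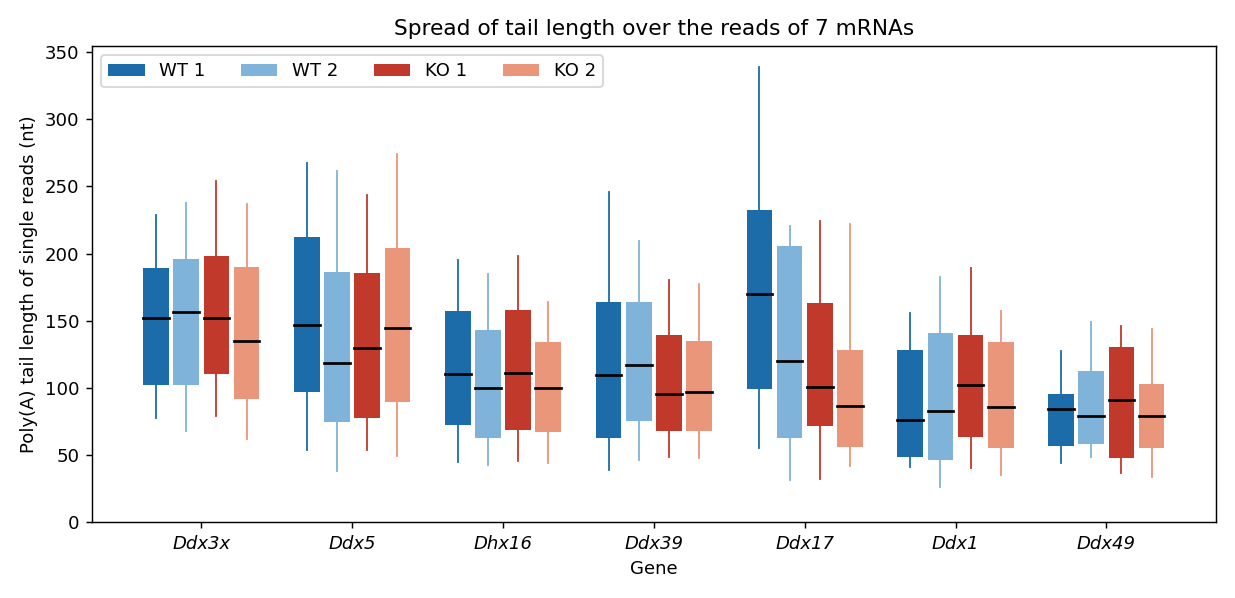
Tail length in nt of single reads (vertical axis) for 7 members, by library. Boxes span the quartiles, black bars mark the median, and thin lines run from the 10th to the 90th percentile. Boxes of the same gene overlap in all 4 libraries, and Ddx17 in WT 1 reaches highest.

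The main comparison asked whether these tails differed between the genotypes. No member passed. Limma's test on log2 median tail length, with Benjamini-Hochberg adjustment over all 1935 genes, called 0 of 12 members at an adjusted p of 0.05, and 0 of 12 had an unadjusted p under 0.05. The background was 0% of the 1935 genes called, and 2.33% at the unadjusted threshold. The log2 change, KO minus WT, was above 0 for 4 members and below 0 for 8, with a median of -0.05, while over all genes it was above 0 for 51.8% and below 0 for 48.2%, with a median of 0.01. The standard errors ran from 0.14 to 0.22.

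The 3 members with the smallest unadjusted p were Ddx39, Ddx1 and Ddx56. Ddx39 had 109.6 nt in WT 1, 116.8 nt in WT 2, 95.2 nt in KO 1 and 96.8 nt in KO 2. Both KO medians lay below both WT medians, and the log2 change was -0.24 ± 0.16 (standard error; limma, adjusted p = 0.9998). With the mean of log2 lengths in place of the median this value was -0.09. Ddx1, whose medians are given above, was the reverse case, with both KO medians above both WT medians, and had a log2 change of 0.24 ± 0.18 (standard error; limma, adjusted p = 0.9998). Ddx56 had 90.4 nt in WT 1 and 122.1 nt in WT 2 against 94.8 and 88.4 nt in KO, so the groups overlapped, and the log2 change was -0.20 ± 0.19 (standard error; limma, adjusted p = 0.9998).

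Ddx46, a helicase of early spliceosome assembly, also had separate groups, at 110.7 and 115.4 nt in WT and 104.4 and 104.3 nt in KO. Its log2 change was -0.12 (limma, adjusted p = 0.9998), but 0.0542 with the mean of log2 lengths, so that its direction turned with the summary. In all, 2 members had both KO medians below both WT medians, where the background was 11.8% of genes, and 1 had both above, where it was 14.7%. These counts are of the size of the background.

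For the most abundant members the values were close. The mean medians of Dhx16 were 105.0 nt ± 7.24 (SD, n = 2) in WT cells and 105.2 nt ± 7.93 (SD, n = 2) in KO cells. Those of Ddx5 were 132.8 nt ± 20.1 (SD, n = 2) and 137.3 nt ± 10.8 (SD, n = 2), and those of Ddx39b were 116.2 nt ± 20.2 (SD, n = 2) and 114.3 nt ± 10.9 (SD, n = 2). Ddx3x averaged 154.3 nt ± 3.33 (SD, n = 2) in WT cells and 143.5 nt ± 12.4 (SD, n = 2) in KO cells, with KO 1 inside the WT range.

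Ddx17, the close paralog of Ddx5 known as p72, had only 18 reads in WT 2 and so was not tested at the minimum of 20. Its median tail was 169.7 nt in WT 1 (95% order-statistic interval 111.0 to 223.8 nt), 120.0 nt in WT 2 (interval 58.4 to 207.8 nt), 100.5 nt in KO 1 (interval 85.5 to 135.3 nt) and 86.6 nt in KO 2 (interval 73.7 to 119.4 nt). Both KO medians lay below both WT medians, but the intervals of all 4 libraries overlapped. With a minimum of 10 reads the log2 change was -0.61 ± 0.20 (standard error; limma, unadjusted p = 0.00236, adjusted p = 0.997 over 3344 genes). It was the only one of 24 members in that fit with an unadjusted p under 0.05, a share that was 3.80% over all genes. Of these 24 members 10 had a log2 change above 0 and 14 below.

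**Figure D4:**
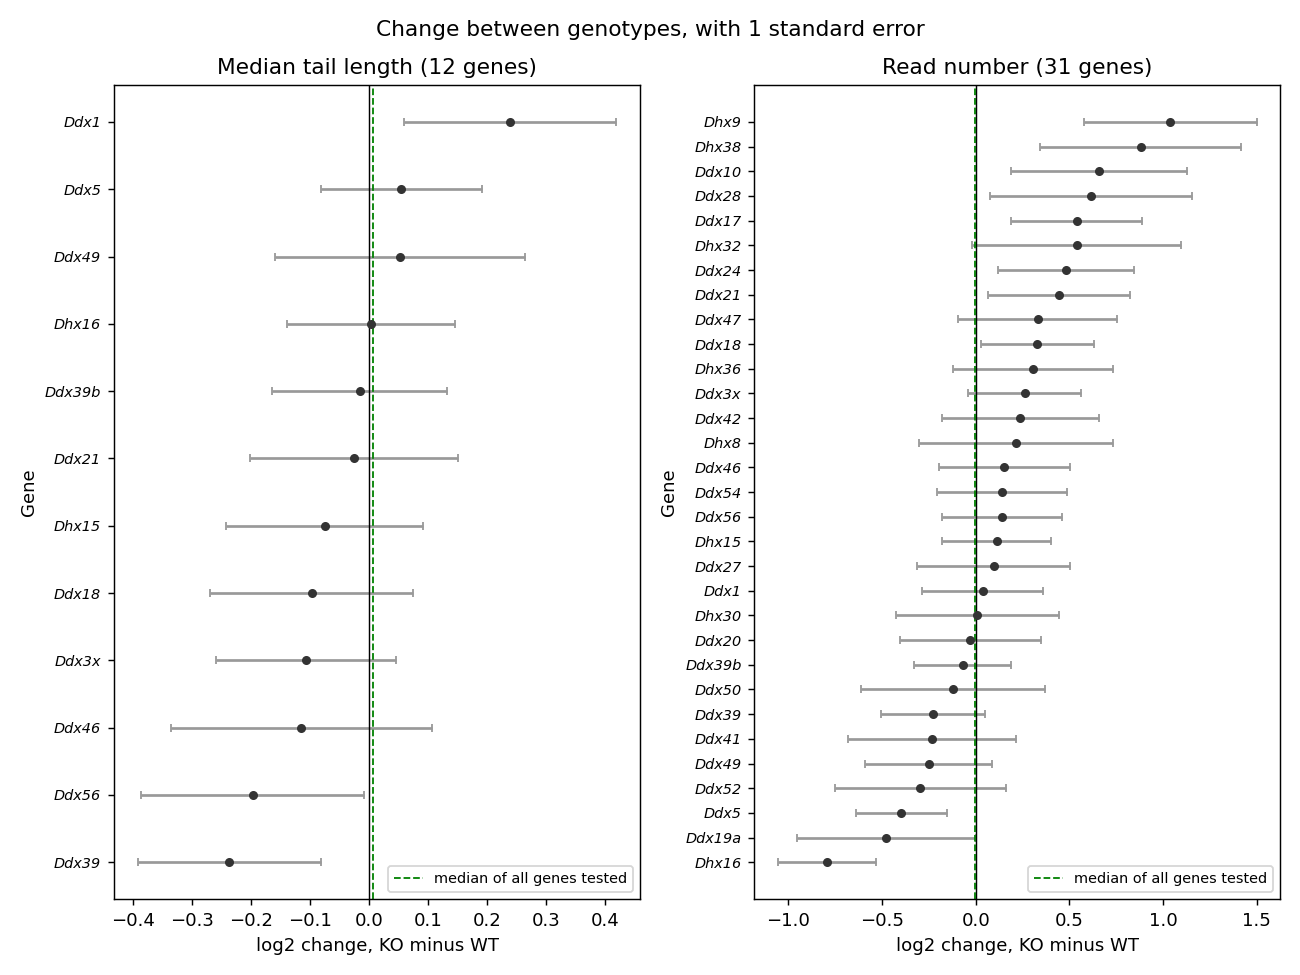
Log2 change between genotypes, KO minus WT (horizontal axis), with 1 standard error, for median tail length of 12 members (left) and read number of 31 members (right). The dashed line is the median of all genes tested. For tail length most bars cross 0, and for read number Dhx9 is highest and Dhx16 lowest.

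Read number was then compared between the genotypes. Again no member passed. Limma's voom test, adjusted by Benjamini-Hochberg over 4815 genes, called 0 of 31 members, and 2 had an unadjusted p under 0.05, Dhx16 and Dhx9; limma-trend also called 0. The background was 0% of genes called, and 10.3% at the unadjusted threshold. Mov10 itself was not called either, with a log2 change of -5.09 (limma, adjusted p = 0.0553, the smallest of the 4815 genes). The test thus missed the loss of the knocked-out gene at this depth. The adjusted p-values of the members ran from 0.275 to 0.997 and the standard errors from 0.24 to 0.56. In bulk RNA, fewer cells that contain an mRNA and less of it per cell cannot be told apart.

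Dhx16 had the smallest p. Both KO values, 266.8 and 200.8 RPM, lay below both WT values, 378.2 and 433.5 RPM, giving means of 405.8 RPM ± 39.1 (SD, n = 2) for WT and 233.8 RPM ± 46.7 (SD, n = 2) for KO. The log2 change was -0.79 ± 0.26 (standard error; limma, adjusted p = 0.275). Without WT 1 it was -0.89, with an adjusted p of 0.0400 (limma), in a fit that called 1.87% of 4978 genes, and without WT 2 it was -0.69, with an adjusted p of 0.0807 (limma). Without KO 1 it was -0.99, with an adjusted p of 0.887, and without KO 2 it was -0.60, with an adjusted p of 0.994 (limma). Its tails, as given above, differed between the genotype means by less than 1 nt. The embryonic stem cell markers were also lower in the KO libraries, with a summed level of 10080 and 9123 RPM in WT and 7781 and 6405 RPM in KO. All 8 had a log2 change below 0, against 50.6% of all genes tested. It ran from -1.23 for Klf4 to -0.34 for Dppa5a, with a median of -0.48. Of the 8, 6 had both KO values below both WT values, against 20.5% of all genes tested. None of the 8 passed (limma, smallest adjusted p = 0.160), and 3 had an unadjusted p under 0.05, against 10.3% of all genes tested. Their part in the lower read numbers of Dhx16, and of Ddx5 below, was not tested.

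Dhx9 rested on few reads, 8 and 11 in the WT libraries and 40 and 21 in the KO libraries. Scaled, this was 20.2 and 30.6 RPM in WT and 57.1 and 46.3 RPM in KO, so that the groups did not overlap. The log2 change was 1.04 ± 0.46 (standard error; limma, adjusted p = 0.458), and 0.73 without WT 1. Dhx38, the DEAH box helicase of the second step of splicing, had 12.6 and 33.4 RPM in WT and 37.1 and 39.7 RPM in KO, and a log2 change of 0.88 ± 0.54 (standard error; limma, adjusted p = 0.592). The low value in WT 1 rests on 5 reads, and without WT 1 the log2 change was 0.16.

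Among the other abundant members, Ddx5 averaged 467.5 RPM ± 26.6 (SD, n = 2) in WT cells and 354.5 RPM ± 0.947 (SD, n = 2) in KO cells, and its log2 change was -0.40 ± 0.24 (standard error; limma, adjusted p = 0.592), or -0.46 without WT 1. Ddx17 went the other way, with 85.7 and 50.0 RPM in WT and 87.0 and 110.3 RPM in KO. The log2 change of Ddx17 was 0.54 (limma, adjusted p = 0.622), but 0.92 without WT 1 and 0.17 without WT 2. The ratio of Ddx5 to Ddx17 reads was 5.24 and 9.72 in the WT libraries and 4.07 and 3.22 in the KO libraries. The paralogs Ddx39b and Ddx39 had read ratios of 0.958, 1.52, 1.31 and 1.38, and log2 changes of -0.07 and -0.23, of which the first was 0.05 under scaling by total reads.

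In all, 6 members had both KO values above both WT values, where the background was 20% of genes. They were Dhx9, Dhx38, Ddx17, Ddx18, Ddx24 and Ddx28, of which Ddx24 and Ddx28 are named here because of this pattern. Below both WT values lay 2 members, Dhx16 and Ddx5, where the background was 20.5%. Both counts are near or under the background.

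The role groups gave no call either. Of the 10 tested splicing helicases 6 had a log2 change above 0, with a median of 0.13, and without WT 1 it was 2 of 10, with a median of -0.16. Of the 11 tested ribosome assembly helicases 8 were above 0, with a median of 0.14, and without WT 1 it was 4 of 11, with a median of -0.22. The 3 tested members of translation and cytoplasmic mRNA, Ddx3x, Dhx9 and Dhx36, were above 0, but Ddx3x was at -0.19 without WT 1. The 2 tested members of mRNA export, Ddx39 and Ddx19a, were below 0 with and without WT 1. Over all 31 members, 21 were above 0, with a median of 0.14, while 49.4% of all genes were above and 50.6% below 0, with a median of -0.01. With total reads as the scale, the median of all genes became 0.11 and that of the members 0.27. Without WT 1, 10 of the same 31 members were above 0 and the median was -0.18, and without WT 2 it was 24, with a median of 0.29. The summed level of all members was 2861 RPM in WT 1, 3460 RPM in WT 2, 3039 RPM in KO 1 and 3036 RPM in KO 2. Both KO libraries thus lay between the 2 WT libraries, and the balance depended on which WT library was kept. In the ribosome assembly group, Ddx10 had a log2 change of 0.66 with 7 reads in WT 1, but -0.23 without WT 1 and 1.44 without WT 2. Ddx21 turned in the same way. Its log2 change was 0.45 with all libraries, 1.17 without WT 2 (limma, adjusted p = 0.0427, in a fit that called 8.87% of 5086 genes) and -0.32 without WT 1 (limma, adjusted p = 0.816).

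The authors' table also sorts genes by Mov10 binding and m6A, a methylated adenosine within mRNA, into targets that carry m6A, targets that do not, and non-targets; the criteria are not given in the sources used here. Of the 31 members tested for read number, 10 were targets with m6A, 9 targets without m6A and 11 non-targets, and 1, Ddx24, had no class. The share of targets with m6A was 32.3%, against 18.8% of all tested genes. Among these 10 were Ddx21, Ddx17, Ddx10, Dhx36 and Dhx38. All 10 had a log2 change in read number above 0, with a median of 0.32, where 62.6% of all tested targets with m6A were above 0 with a median of 0.17. The lowest of them, Dhx30, was at 0.00752, but at -0.0369 with limma-trend and -0.0581 with the replicate block. Of the 9 members that were targets without m6A, 6 were above 0, with a median of 0.10. Over all tested genes of that class 51.25% were above 0, with a median of 0.01. Of the 11 non-targets 4 were above 0, with a median of -0.07. Over all tested non-targets the share was 40.9%, with a median of -0.10. Ddx5, Dhx16, Ddx39b and Ddx39, all abundant, were non-targets. Without WT 1, 4 of the 10 targets with m6A were above 0 and their median was -0.17, while all tested targets with m6A had a median of 0.00235. The other classes were lower too, with 2 of 9 targets without m6A above 0 and a median of -0.19, and 3 of 11 non-targets and a median of -0.18. Over all tested genes of these classes the medians without WT 1 were -0.0157 and -0.0582. Without WT 2, 9 of the 10 targets with m6A were above 0, with a median of 0.75. The pattern was noticed in these data and has no test here.

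**Figure D5:**
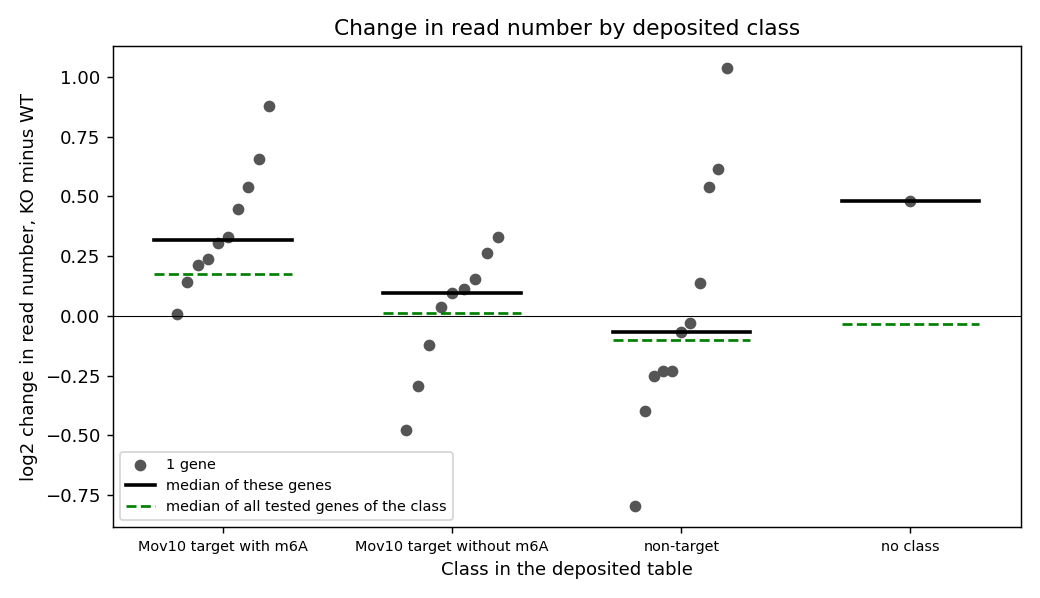
Log2 change in read number, KO minus WT (vertical axis), of the 31 tested members by class in the deposited table, with 1 point per gene. Solid bars are medians of the members and dashed bars medians of all tested genes of the class. All 10 points of the targets with m6A lie above 0, and Dhx16 is the lowest point among the non-targets.

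RNA helicases without a Ddx or Dhx name were examined beside the members, from a list of 23 symbols without Mov10, of which 19 had reads. None of the 4 tested for tail length and none of the 10 tested for read number passed (limma, 0 calls; 0 and 1 with an unadjusted p under 0.05). Eif4a1, the helicase of the cap-binding complex, had more reads than any member, at 1034, 1025, 934.6 and 1141 RPM, and a log2 change of -0.00355, whose sign turned under scaling by total reads, at 0.10. Eif4a3, a core protein of the exon junction complex, had 131.1 and 166.7 RPM in WT and 234.0 and 324.3 RPM in KO. Its log2 change was 0.88 (limma, adjusted p = 0.271), and 1.04 without WT 2, which had the higher of the 2 WT values. Eif4a2 had a log2 change of -0.58, and its median tails, from 121.0 nt in WT 1 to 192.7 nt in KO 1, reached the length of those of Ddx3x and beyond.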

How the data were processed

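The deposited table has 1 row per read and, per the file header, names its library, transcript and gene symbol and gives its tail length in nt, an estimate by the authors with no recorded normalization. Per the labels' protocols, RNA was selected on oligo(dT) beads, which can lose molecules with very short tails, and the libraries were multiplexed with barcode adapters. The submitters' processing notes name minimap2 2.20. The basecaller, tail estimator, genome build and read filters are not given in the sources used here. The classes of Mov10 targets are the authors' and their definition is not stated.

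Of 1903922 reads, 3 with a length of 0 were left out. Symbols were used as deposited. Of the 5886 member reads, 639 lay on a transcript that carried more than 1 symbol. Among them were 448 reads of Ddx39b and all 178 reads of Ddx56. For 5 member reads another symbol was more common on the transcript. All 51 members had an Ensembl gene ID in a table of mouse gene names. The table has no column of counts, so reads per gene were counted here.

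Both tests were fitted on all genes with limma 3.58.1 in R 4.3.3, on 2 against 2 libraries. Tail length was tested as log2 of the median per gene and library, with at least 20 reads in each library and log2 mean read number as trend covariate. Read number was tested with voom for genes averaging 10 or more reads; 0.5 reads were added and libraries were scaled by the median of ratios. P-values were adjusted by Benjamini-Hochberg, with a threshold of 0.05. Both tests were also run on simulated data. Every simulated gene had the same variance of tail length, or the same extra variance of read number, which real genes need not have. With 1935 genes the tail test found 35% of genes changed by 0.5 on the log2 scale and 97% of those changed by 1, with 2 false calls. With 4815 genes the read number test found 12% of those changed by 1 and 79% of those changed by 2, with 6 false calls. These shares hold for the simulation and not for the deposited data. Order-statistic and Wilson intervals cover the sampling of reads only. Summaries were made in Python 3.11.15 with pandas 2.3.3 and scipy 1.17.1.

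Values in every library are given for the 12 members with the most reads, the 3 with the smallest p in each test, and the 2 with the longest and the shortest tails; others are given by role group, with up to 4 examples in order of reads, and any further name was chosen after its values were seen. The members, role groups and lists were chosen with earlier results of these data known. The alternatives concerned how a gene's tails are summarised, read minimums, weights, centring, scaling, the model, transcripts in place of genes and the replicate block; each library was also left out in turn. Leaving out reads whose symbol was not the most common of their transcript was chosen after seeing the data.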

Additional observations from a re-analysis of the deposited data

How the results depend on the processing

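No member passed in any alternative for tail length, and for read number 1 passed without WT 1 (Dhx16) and 1 without WT 2 (Ddx21), a range of 0 to 1 over the left-out libraries. Over all genes the tail length test called 0, but 1 at a minimum of 10 reads and from 0 to 2 with a library left out. The read number test called 0, but 7 under scaling by total reads, 96 with no filter, 66 with the replicate block, 1 with only the most common symbol of each transcript, and from 0 to 451 with a library left out. The replicate block called no member; across genes the differences between same-numbered replicates of the genotypes correlated at 0.0135 for tail length and 0.0155 for read number, so the numbers were not treated as pairs. The median log2 change of the members ranged from -0.13 to 0.0250 for tail length and from -0.19 to 0.25 for read number with a library left out. With limits of 20 and 200 nt the mean share of short tails among member reads was 0.885% in place of 3.50%, and that of long tails 14.1% in place of 30.2%, which follows from the limits. Dhx15 had a log2 tail change of 0.0359, Ddx46 of 0.0542 and Ddx49 of -0.0741 with the mean of log2 lengths, and Ddx21 had 0.00751 when weighted by reads; Ddx39b had a log2 read change of 0.0471 under scaling by total reads, and Eif4a1 had 0.10 there, 0.0373 at a mean of at least 30 reads and 0.00422 with limma-trend. These signs are opposite to those of the main values, and the cause was not tested. With a library left out, the log2 tail change ranged from -0.28 to 0.0845 for Ddx18, -0.0804 to 0.0297 for Ddx21, -0.19 to 0.16 for Ddx39b, -0.0494 to 0.15 for Ddx49, -0.10 to 0.21 for Ddx5, -0.41 to 0.0193 for Ddx56, -0.19 to 0.0399 for Dhx15 and -0.0738 to 0.0802 for Dhx16. For read number it ranged from -0.32 to 0.38 for Ddx1, -0.23 to 1.44 for Ddx10, -0.32 to 1.17 for Ddx21, -0.18 to 0.0286 for Ddx39b, -0.19 to 0.70 for Ddx3x, -0.48 to 0.0536 for Ddx49, -0.14 to 0.39 for Ddx56, -0.0458 to 0.27 for Dhx15 and -0.13 to 0.17 for Eif4a1. Where a genotype is left with 1 library, that library is assumed to vary like the others. Depth limits the 39 members not tested for tail length and the 20 not tested for read number.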

Other observations

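Several members were read from more than 1 annotated transcript, and the transcripts named here were chosen after their values were seen. Ddx39 had 224 reads on ENSMUST00000019576.14, with a median tail of 99.8 nt, and 120 reads on ENSMUST00000109810.1, with 95.01 nt. The transcript ENSMUST00000127505.7 had only 10 reads, with a median of 265.3 nt and quartiles of 131.3 and 298.8 nt. Its medians were 276.4 nt in WT 1, 312.5 nt in WT 2, 221.5 nt in KO 1 and 198.2 nt in KO 2, on 4, 2, 2 and 2 reads, and each was above the median of the main transcript in the same library, which ran from 88.0 to 116.0 nt. Ddx5 had 736 reads on ENSMUST00000021062.11, with a median of 130.8 nt, and 26 on ENSMUST00000133426.7, with 160.2 nt; in WT 2 the second transcript had a single read. Ddx17 divided its reads nearly evenly, with 86 on ENSMUST00000054014.8 and 77 on ENSMUST00000229877.1. On the first, the median tail was 166.0 and 114.1 nt in WT against 135.3 and 94.1 nt in KO, so that the genotypes overlapped. On the second it was 173.9 and 125.8 nt in WT against 88.8 and 78.9 nt in KO, on 20, 7, 30 and 20 reads. Ddx46 had 45, 45 and 41 reads on 3 transcripts, with medians of 101.7, 136.0 and 100.7 nt. Which of several overlapping transcripts a read belongs to can be uncertain where reads do not cover the full length, and the depth per transcript and library allows no test.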
